A study of Mus musculus with 26 samples.

Results

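The 10 genes described are those of glucose uptake and aerobic glycolysis Slc2a1, Hk1, Hk2, Pfkfb1, Pfkfb2, Pfkm, Aldoa, Aldoc, Pgk1 and Ldha. They were chosen by name and matched to the Ensembl identifiers of the count table by symbol, and all 10 of 10 were found among 37991 genes, of which 37205 had a symbol. Each symbol belonged to 1 identifier, and all 10 genes passed the filter on low counts in all 5 comparisons. The 26 RNA-seq libraries came from rd10 mice, which carry a mutation of the rod gene Pde6b and lose their rods early in life; no library without the mutation was analysed. Mice were injected intraperitoneally with saline or an inhibitor of a chromatin enzyme from postnatal day (PN) 9 to PN24. Whole retinas of the genotype B6.CXB1-Pde6brd10/Jrd10 gave 22 libraries. DZNep (4 control and 2 treated libraries) and UNC1999 (3 and 3) inhibit EZH2, the histone H3 methyltransferase of Polycomb, UNC0642 (2 and 2) inhibits the histone H3 methyltransferases EHMT1 and EHMT2, also called GLP and G9a, and Romidepsin (3 and 3) inhibits histone deacetylases. The other 4 libraries, 2 control and 2 treated with the LSD1 inhibitor GSK2879552, held rods sorted by FACS from a cross of rd10 with B6.Cg-Tg(Nrl-EGFP)1Asw/J mice, in which the Nrl promoter drives EGFP in rods. The labels number biological replicates without tying them to animals, so p-values measure only the spread between these libraries. UNC1999 was dissolved in a mixture with DMSO, PEG and Tween. For its controls the study's text on RNA-seq names saline, and its legend for the stained retinas names diluent. With saline controls the compound and its vehicle cannot be told apart. DZNep injections are daily in the labels and sparser after the first days in the study's own account. The retinas held between 13732959 and 36354094 counted reads each, and the sorted rods between 7289460 and 19864491.

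Photoreceptors are known for aerobic glycolysis: they turn most of their glucose into lactate although oxygen is present. Glucose enters through the transporter GLUT1, encoded by Slc2a1, and hexokinases trap it as glucose phosphate. Hexokinase 1 (Hk1) is found in most neurons, while hexokinase 2 (Hk2) is the form typical of photoreceptors and can bind to mitochondria. Phosphofructokinase, whose muscle-type subunit is encoded by Pfkm, makes the committed step, and it is activated by a sugar bisphosphate that the bifunctional enzymes Pfkfb1 and Pfkfb2 make and break down. The aldolases Aldoa and Aldoc split the sugar, phosphoglycerate kinase (Pgk1) yields ATP, and lactate dehydrogenase A (Ldha) favours the step from pyruvate to lactate.

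The promoters of Hk2, Slc2a1 and Pfkfb2 are shown because the 3 genes had the largest rises among the members after DZNep and because glycolysis genes are well-known targets of the hypoxia-inducible factors. The windows run from 250 bases before to 50 after the start site, 5′ to 3′ on the strand of the gene, and come from RefSeq on GRCm38.p6, a later build than the one the reads were counted on. Capitals mark the hypoxia response cores ACGTG and GCGTG on either strand, which read CACGT and CACGC where they lie on the other strand; the E-box CACGTG holds ACGTG on both strands. The Hk2 window is chr6:82774405-82774704 (minus strand), that of Slc2a1 is chr4:119108495-119108794 (plus strand), and the Pfkfb2 window, the first of 3, is chr1:130715772-130716071 (minus strand).
Hk2: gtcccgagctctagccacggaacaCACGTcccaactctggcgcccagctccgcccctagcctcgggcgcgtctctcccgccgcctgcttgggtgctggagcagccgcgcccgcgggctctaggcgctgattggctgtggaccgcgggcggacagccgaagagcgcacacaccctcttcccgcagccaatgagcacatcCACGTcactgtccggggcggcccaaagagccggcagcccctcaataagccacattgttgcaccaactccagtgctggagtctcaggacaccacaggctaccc
Slc2a1: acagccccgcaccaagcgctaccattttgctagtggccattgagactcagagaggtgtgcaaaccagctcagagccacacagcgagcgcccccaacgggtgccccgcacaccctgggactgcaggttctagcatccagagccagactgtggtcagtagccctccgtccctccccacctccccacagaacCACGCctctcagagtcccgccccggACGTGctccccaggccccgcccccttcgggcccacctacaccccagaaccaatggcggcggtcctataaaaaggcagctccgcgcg
Pfkfb2: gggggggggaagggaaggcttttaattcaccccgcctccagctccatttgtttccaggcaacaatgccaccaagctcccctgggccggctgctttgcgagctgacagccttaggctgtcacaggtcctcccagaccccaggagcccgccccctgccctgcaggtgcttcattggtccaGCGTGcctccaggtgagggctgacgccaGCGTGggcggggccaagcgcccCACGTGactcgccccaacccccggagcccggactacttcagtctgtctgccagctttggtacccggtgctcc
At least 1 core was found in a window of 10 of 10 members, against 46.7% of 27025 genes, but the members have 23 windows for 10 genes, more than the 32851 windows of all genes give on average. By window, 17 of the 23, some of which overlap, held a core, against 43.8% of all windows. Both cores hold the letters CG, and the shares over all genes and windows were not matched for base composition. Hk2 held 2 matches of ACGTG, Slc2a1 held 1 of each core, and the Pfkfb2 window held 2 of each core, both ACGTG matches being those of its E-box. The E-box was found in 7.15% of all windows. The letters TAATCC, the core bound by the photoreceptor factor CRX, were found on either strand in 3 of the 23 windows, 1 each of Pfkm, Aldoc and Ldha, and in 7.06% of all windows. A match describes the letters of a window and says nothing of binding.

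In control retinas the 10 genes spanned a wide range of levels. CPM are read counts put on a common library size, here with the TMM factors of edgeR, and, to compare genes with each other, were divided by exon length in kilobases. Aldoa was the most abundant member at 913 ± 74.3 CPM per kilobase (SD, n = 12 control retinas), followed by Ldha at 297 ± 29.8 and Pgk1 at 239.5 ± 41.7. The SD also holds differences between experiments. Mean Pgk1 was 306 CPM per kilobase in the UNC1999 controls and 210 to 225 in the other groups of control retinas. Hk1 stood at 113 ± 15.6 and Hk2 at 33.3 ± 7.67 CPM per kilobase, so Hk1 was the more abundant hexokinase in the whole retina. Pfkfb2 stood at 15.7 ± 3.27 CPM per kilobase, and Pfkfb1, the liver-type form, was the least abundant at 0.232 ± 0.0613, from 14 to 28 reads per control retina.

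Rods sorted from control mice had another profile. Pfkfb2 was at 80.5 and 117 CPM per kilobase in the 2 control rod libraries, against 11.8 to 22.04 in the 12 control retinas. Ldha was also higher in sorted rods, at 746 and 1136 against 256 to 353 CPM per kilobase. Pfkfb1, though scarce, was at 0.612 and 0.799 against 0.174 to 0.409 CPM per kilobase. Pfkm lay lower in sorted rods, with 11.2 and 17.9 against 83.1 to 106 CPM per kilobase. Lower values were also found for Pgk1 (75.2 and 128 against 205 to 315), Aldoc (84.6 and 146 against 156 to 249) and Slc2a1 (64.2 and 76.5 against 79.8 to 137). The ranges of these 7 members did not overlap, and those of Hk1, Hk2 and Aldoa did. The share of all genes without overlap was not computed, so the count is not shown to be particular to these genes. Hk2 was at 42.9 and 62.4 CPM per kilobase in sorted rods and at 22.02 to 45.9 in the retinas. Hk1 was at 111 and 170 CPM per kilobase in sorted rods and at 96.5 to 146 in the retinas, above Hk2 in both. These are descriptions without a test, because sorted rods and whole retinas differ in dissociation, sorting and library kit as well as in cell type, and these cannot be told apart. The sorted libraries matched their label in part: in controls the summed CPM of 13 rod genes was 52223 and 80146, that of 9 Müller glia genes was 422 to 645 against 6055 to 13249.8 in control retinas, and that of 10 cone genes was 3104 to 4664 against 1637 to 2982.

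**Figure D1:**
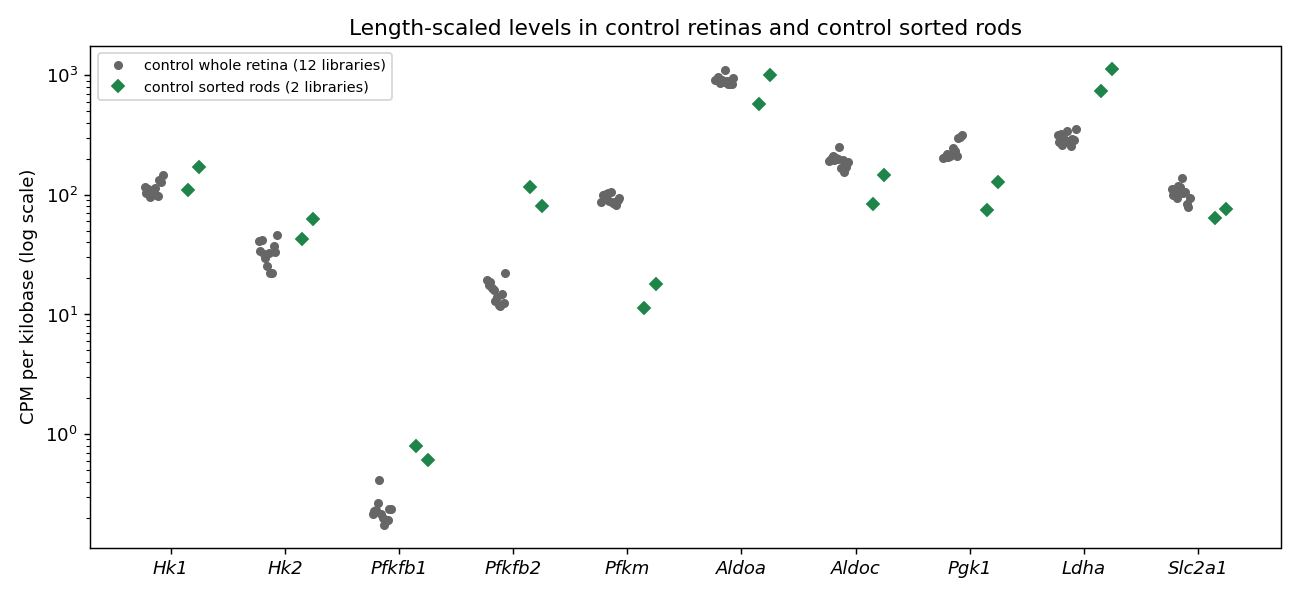
Level of each of the 10 genes in control libraries, in CPM per kilobase on a log axis: grey circles are the 12 control whole retinas and green diamonds the 2 libraries of control sorted rods. Pfkfb1, Pfkfb2 and Ldha lie higher and Pfkm, Aldoc, Pgk1 and Slc2a1 lower in sorted rods, with no overlap.

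Across the 5 comparisons, DZNep gave the most calls among the members and Hk2 was the called member with the largest change. After DZNep 6 of 10 members were higher at an adjusted p under 0.05 (Hk1, Hk2, Pfkfb2, Aldoa, Ldha and Slc2a1), where 12.9% of all 16477 genes tested were called higher. Pfkm was the only member called lower, against 9.72% of genes. After Romidepsin only Hk2 was called, higher, against 0.573% of 16049 genes. No member was called after UNC1999, where 0.501% of 15775 genes were called higher and 0.101% lower, after UNC0642 (0.0% of 16321 genes in either direction) or in sorted rods after GSK2879552 (0.0% of 14478 genes). The edgeR quasi-likelihood test was used, with Benjamini-Hochberg adjustment over all genes tested. At an unadjusted p under 0.05 it gave 5 members after UNC1999, 0 after UNC0642 and 1 in sorted rods, beside 23.6%, 14.7% and 4.91% of all genes. The same count was 7 after DZNep and 4 after Romidepsin, beside 36.5% and 19.4%. The likelihood ratio test and DESeq2 each called 4 members higher after UNC1999 (beside 5.32% and 5.0% of genes), 0 after UNC0642 (0.6% and 0.613%) and 0 in sorted rods (0.318% and 0.186%). Both called the same 6 members higher after DZNep (12.0% and 10.8%), and Hk1 with Hk2 after Romidepsin (4.09% and 3.71%). With a log2 fold change above 1 as a second condition, Hk2 was the only member called higher, after DZNep and after Romidepsin, beside 1.02% and 0.405% of genes, and 0.298% of genes met both conditions after UNC1999.

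**Figure D2:**
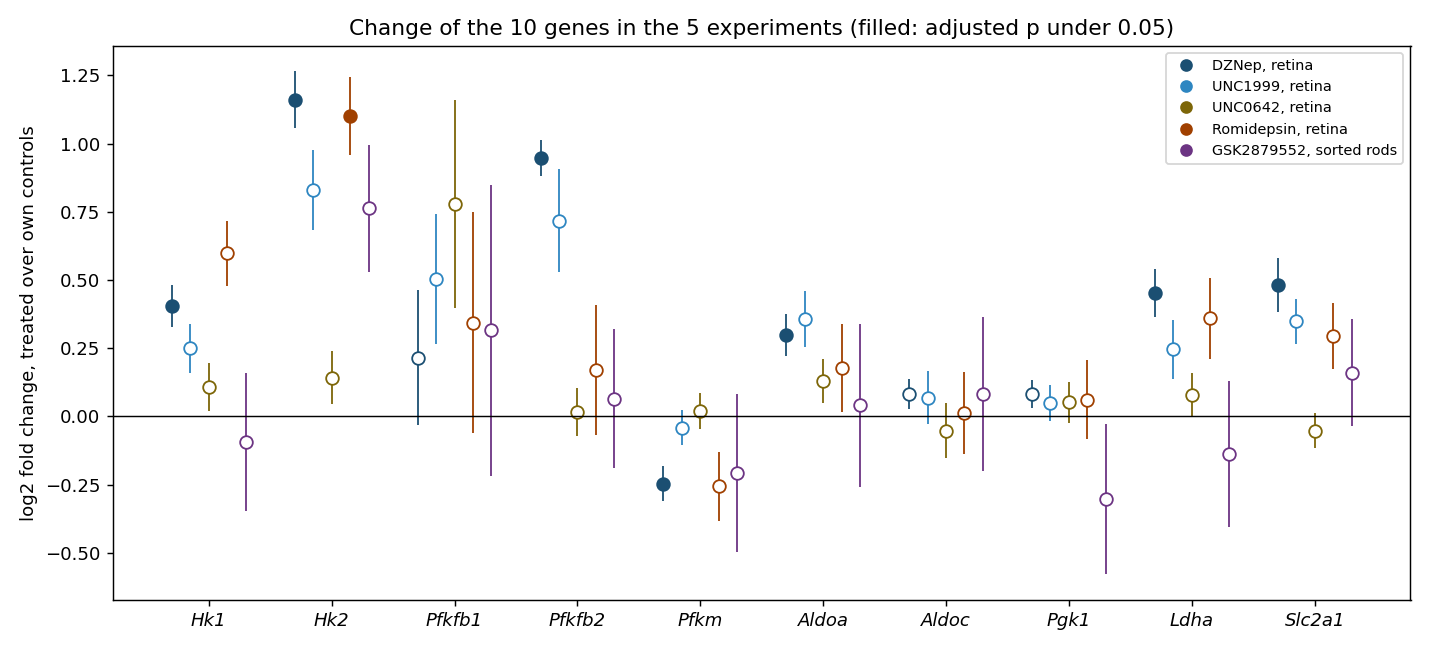
Log2 fold change of treated over own control libraries (vertical axis) of the 10 genes in the 5 comparisons, with the standard error of the fit as bars; filled points passed an adjusted p under 0.05 and open points did not. Hk2 lies at 1.16 after DZNep and 1.10 after Romidepsin, both filled, and the UNC0642 points other than Pfkfb1 lie near 0.

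Counting libraries alone, every DZNep-treated retina lay above every control for 7 of 10 members and below for 1, beside 24.4% and 21.5% of all genes. For UNC1999 the treated libraries lay above in 6 members and below in 0, beside 13.9% and 13.6% of genes. Romidepsin had 3 above and 0 below (13.5% and 12.5% of genes), UNC0642 had 2 above and 1 below (26.9% and 25.2%), and sorted rods had 3 above and 0 below (15.9% and 17.3%). The median log2 fold change of the 10 members was 0.35 after DZNep, 0.30 after UNC1999, 0.24 after Romidepsin, 0.07 after UNC0642 and 0.05 in sorted rods, against medians between -0.01 and 0.00 over all genes tested.

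Hk2 (chr6:82675019-82724448, minus strand, NCBIM37) encodes the hexokinase typical of photoreceptors. Its level was 248, 202, 252 and 192 CPM in the 4 DZNep controls, and 501 and 499 CPM in the 2 treated retinas. Both treated retinas lay well above the highest control. The log2 fold change was 1.16 with a standard error (SE) of 0.10 and an adjusted p of 0.000519 by the edgeR quasi-likelihood test. After Romidepsin Hk2 went from 178, 152 and 197 CPM in controls to 332, 377 and 421 CPM in treated retinas, again without overlap. Its log2 fold change was 1.10 (SE 0.14, edgeR adjusted p = 0.0277), and the call was lost without control replicate 2 (0.120), control replicate 3 (0.112) or treated replicate 3 (0.124), the log2 fold change staying between 1.01 and 1.19 when any 1 library was left out.

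After UNC1999 Hk2 stood at 224, 199 and 274 CPM in controls and at 491, 371 and 377 CPM in treated retinas. The groups did not overlap, but the log2 fold change of 0.83 (SE 0.15) missed the threshold in the edgeR quasi-likelihood test, with an adjusted p of 0.0533. It passed without control replicate 3 (adjusted p = 0.00363), the UNC1999 control with the most rod RNA, and in the fit of all 22 retina libraries (0.00292). With other libraries left out in turn it did not pass, and the adjusted p reached 0.210 without control replicate 2. For UNC0642 Hk2 was at 133 and 131 CPM in controls and 133 and 159 CPM in treated retinas, and the groups overlapped (log2 fold change 0.14, SE 0.10). In sorted rods Hk2 was at 256 and 372 CPM in controls and at 560.2 and 507 CPM after GSK2879552. Both treated libraries lay above both controls, and the log2 fold change was 0.76 (SE 0.23, edgeR adjusted p = 0.894, unadjusted p = 0.0103).

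**Figure D3:**
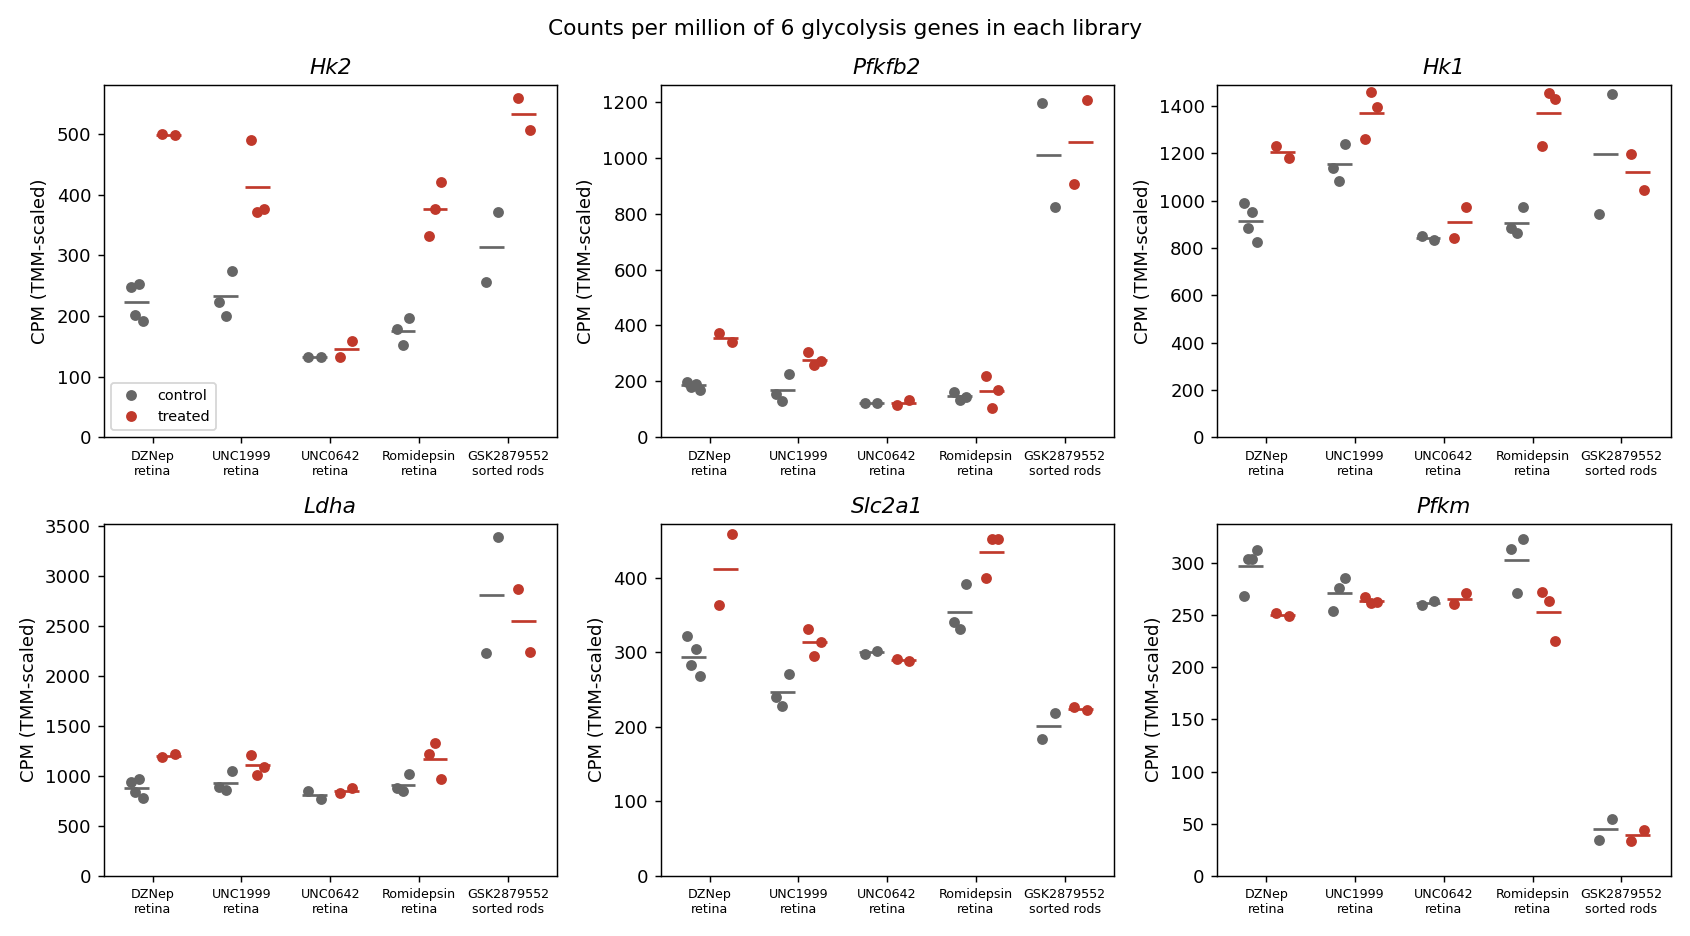
TMM-scaled CPM of 6 of the genes in each library, grey for control and red for treated, with a bar at the group mean; each panel has its own axis, starting at 0. Hk2 is higher in every treated library than in its controls in 4 of the 5 comparisons, and Pfkfb2 is more abundant in sorted rods than in any retina.

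Hk1 (chr10:61731603-61842656, minus strand), the broadly expressed hexokinase, rose less than Hk2 after DZNep. In the DZNep experiment it was at 991, 884, 950.3 and 823 CPM in controls and at 1232 and 1183 CPM in treated retinas, without overlap. The log2 fold change was 0.40 (SE 0.08, edgeR adjusted p = 0.00783), and the call was lost without treated replicate 1 (0.0786). Romidepsin gave 884, 864 and 973 CPM in controls and 1232, 1456 and 1431 CPM in treated retinas, which did not overlap either. This log2 fold change of 0.60 (SE 0.12) was the largest of the 5 for Hk1 but missed the threshold in the quasi-likelihood test of edgeR (adjusted p = 0.0589). With each library left out in turn the adjusted p ran from 0.0424, without treated replicate 1, to 0.185. After UNC1999 the values were 1137, 1084 and 1242 CPM against 1261, 1458 and 1397 CPM (log2 fold change 0.25, edgeR adjusted p = 0.146). In sorted rods Hk1 overlapped between groups, with 944 and 1450.0 CPM in controls and 1198 and 1044 CPM after GSK2879552. An antisense gene, 2210417K05Rik, shares exon sequence with Hk1, and whether reads were counted by strand is not given in the sources used here.

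Within each library the ratio of Hk2 to Hk1, both per length, does not depend on scaling between libraries. Its groups were apart in 4 of 5 experiments. The share of other gene pairs apart was not computed, so this count is not shown to be particular to the hexokinases. The exact permutation test used for it cannot reach 0.05 with so few libraries. In the DZNep controls the ratio ran from 0.327 to 0.380 and in the 2 treated retinas from 0.581 to 0.603 (exact permutation p = 0.133, two-sided, the smallest possible; 20 ratio tests, adjusted p = 0.296). It was 0.263 to 0.315 against 0.364 to 0.557 in the UNC1999 experiment and 0.252 to 0.289 against 0.370 to 0.420 in the Romidepsin experiment (exact permutation p = 0.100 each, the smallest possible). Sorted rods had 0.367 and 0.387 in controls and 0.668 and 0.694 after GSK2879552. For UNC0642 the ratios overlapped, from 0.223 to 0.225 in controls and from 0.225 to 0.233 in treated retinas. Other ratios tested were also often apart. Ldhb to Ldha was apart for DZNep and Romidepsin, and Pfkfb2 to Pfkfb1 for DZNep, UNC0642 and sorted rods. Of all 20 ratio tests, 14 to 16 had groups apart when each library was left out in turn.

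Slc2a1 (chr4:118781316-118809935, plus strand), which encodes the glucose transporter of photoreceptors, pigment epithelium and Müller glia, was at 322, 283, 304 and 268 CPM in the DZNep controls and at 363 and 459 CPM after treatment. The groups did not overlap, and the log2 fold change was 0.48 (SE 0.10, edgeR adjusted p = 0.00964); without treated replicate 2 it missed the threshold (0.0775). After UNC1999 it was at 331, 295 and 313 CPM against 239.8, 228 and 271 CPM in controls (log2 fold change 0.35, SE 0.08, edgeR adjusted p = 0.0679). Romidepsin gave 399, 452 and 452 CPM against 340.1, 331 and 391 CPM (0.29, SE 0.12, edgeR adjusted p = 0.225). Treated libraries lay above controls in both. After UNC0642 it was at 290.2 and 288 CPM against 298 and 302 CPM in controls. Of 8 marker genes of the pigment epithelium, 5 were called higher after DZNep, 6 after UNC1999 and 0 after Romidepsin. Their summed CPM ran from 51.9 to 149.8 in DZNep controls and from 194 to 259 after treatment, from 106 to 125 and from 354 to 410 for UNC1999, and from 85.7 to 99.3 and from 48.6 to 62.2 for Romidepsin. Their part in the values of Slc2a1 was not tested. A further gene, Gm12868, shares exon sequence with Slc2a1 on the other strand.

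Pfkfb2 (chr1:132585620-132625830, minus strand) was the called member with the largest change after Hk2. In the DZNep experiment it was at 199, 181, 190.4 and 169.7 CPM in controls and at 373 and 339 CPM in treated retinas, with no overlap. The log2 fold change was 0.95 (SE 0.07, edgeR adjusted p = 0.000289), a fold of 1.93. UNC1999 gave 153, 128 and 225 CPM against 304, 257 and 272 CPM, also apart (log2 fold change 0.72, SE 0.19, edgeR adjusted p = 0.0813). Without the highest control, replicate 3, the edgeR adjusted p was 0.00172, and with each library left out in turn it reached up to 0.253. With all libraries kept, the likelihood ratio test (adjusted p = 0.00622) and DESeq2 (adjusted p = 0.00167) called Pfkfb2 as well. In the Romidepsin experiment it was at 162, 132 and 143 CPM in controls and 219, 104 and 169.6 CPM in treated retinas, which overlapped (log2 fold change 0.17, SE 0.24). Neither UNC0642 (123 and 121 CPM against 114 and 132 CPM) nor GSK2879552 in rods (1198 and 823 CPM against 907 and 1207 CPM) separated the groups. Exons of Yod1 overlap Pfkfb2 on the other strand.

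Pfkfb1 (chrX:147022772-147078421, plus strand) was scarce, between 0.698 and 1.92 CPM in retinas and between 2.46 and 3.73 CPM in sorted rods. A count of 3, the floor used here, was 0.0825 to 0.218 CPM in retinas and 0.151 to 0.412 CPM in rods. Its log2 fold changes ran from 0.21 to 0.78 and none passed the test. The largest, after UNC0642, rested on 0.698 and 0.758 CPM in controls and 1.00 and 1.53 CPM in treated retinas (SE 0.38, edgeR adjusted p = 0.376). Exons of Apex2 overlap it on the other strand. Pfkm (chr15:97923020-97962878, plus strand), a subunit of phosphofructokinase, fell after DZNep. It was at 268, 304, 304 and 313 CPM in controls and at 252 and 249 CPM in treated retinas, so the groups were apart by a small gap. The log2 fold change was -0.25 (SE 0.06, edgeR adjusted p = 0.0259), and the call was lost without control replicate 2, control replicate 3 or either treated replicate (adjusted p from 0.0673 to 0.141) and in the fit of all 22 retinas (0.108). Romidepsin gave a change of like size (log2 fold change -0.26, SE 0.13), from 314, 272 and 323 CPM to 272, 263 and 225 CPM, that did not pass (edgeR adjusted p = 0.307).

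Among the later steps, changes were smaller than that of Hk2. Aldoa (chr7:133938748-133944265, minus strand) was at 2529, 2534, 2680.1 and 2377 CPM in DZNep controls and at 2958 and 3265 CPM in treated retinas. The groups were apart, with a log2 fold change of 0.30 (SE 0.08, edgeR adjusted p = 0.0245). That call was lost without control replicate 2 (0.0693) or either treated library (0.0538 and 0.131) and in the fit of all 22 retinas (0.147). After UNC1999 Aldoa was at 3422, 2823 and 3095 CPM against 2330.1, 2329 and 2638 CPM (log2 fold change 0.36, SE 0.10, edgeR adjusted p = 0.0957). Aldoc (chr11:78136470-78141283, plus strand), the aldolase of brain and glia, was called in no comparison, with log2 fold changes from -0.05 to 0.08. The ratio of Aldoc to Aldoa was lower in every treated than in every control retina in all 4 retina experiments, and the share of other gene pairs apart was not computed. For DZNep it was 0.178 to 0.197 against 0.208 to 0.228 (exact permutation p = 0.133, the smallest possible). For UNC0642 the gap was narrow, from 0.1878 in the highest treated to 0.1885 in the lowest control retina (exact permutation p = 0.333, the smallest possible). Adjusted over all ratio tests, the permutation p was 0.296 for DZNep, UNC1999 and Romidepsin and 0.444 for UNC0642. In sorted rods the ratio was 0.146 and 0.147 in controls and 0.149 and 0.152 after treatment.

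Pgk1 (chrX:103382439-103399038, plus strand), which yields the ATP of the lower pathway, was called in no comparison. Its log2 fold changes in retinas lay between 0.05 and 0.08, and in sorted rods it was at 169 and 287 CPM in controls and 209 and 161 CPM after GSK2879552 (log2 fold change -0.30, SE 0.28). Ldha (chr7:54096845-54110997, plus strand) rose after DZNep, from 940.2, 834, 963 and 776 CPM to 1185 and 1218 CPM. The groups did not overlap, and the log2 fold change was 0.45 (SE 0.09, edgeR adjusted p = 0.00836), which missed the threshold without either treated library (0.0603 and 0.0519). Romidepsin gave 1216, 1331 and 963 CPM against 879, 843 and 1013 CPM, and UNC1999 gave 1208, 1009 and 1089 CPM against 882, 855 and 1052 CPM, both with overlap. Their log2 fold changes were 0.36 (SE 0.15, edgeR adjusted p = 0.229) and 0.25 (SE 0.11, edgeR adjusted p = 0.214). Ldha has processed copies, so its counts are uncertain to the extent that reads were shared.

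Of 56 further genes of transport, glycolysis, pyruvate entry, the pentose phosphate branch and their regulators, 50 were tested for DZNep, and 12 were called higher and 2 lower, beside 12.9% and 9.72% of all genes. Those called higher included Nxnl2, Ppargc1a, Slc16a1 and Tigar, the 4 of lowest p. Nxnl2, which encodes a rod-derived cone viability factor, went from 45.3, 31.8, 40.1 and 28.2 CPM to 96.2 and 90.0 CPM (log2 fold change 1.36, SE 0.15, edgeR adjusted p = 0.00100). Ppargc1a, a regulator of mitochondrial genes, had a log2 fold change of 0.53, Slc16a1, the lactate transporter MCT1, one of 0.50, and Tigar, which opposes the kinase activity of the Pfkfb enzymes, one of 0.37. In each of these 3 the treated libraries lay above all controls, and the call of Tigar was lost without treated replicate 1 (adjusted p = 0.0898).

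Hkdc1, a further hexokinase, fell after DZNep, where Hk1 and Hk2 rose. For Romidepsin it ran from 38.3 to 62.5 CPM in controls and from 39.4 to 56.8 CPM in treated retinas. For UNC1999 it ran from 22.9 to 38.6 and from 21.5 to 49.2 CPM, and both overlapped. It was at 40.8, 54.1, 49.5 and 48.5 CPM in DZNep controls and at 15.5 and 17.0 CPM in treated retinas, a log2 fold change of -1.58 (SE 0.11, edgeR adjusted p = 0.000289). Txnip, which restrains glucose uptake, was the other gene that fell, from 35.2, 29.6, 33.8 and 22.3 CPM to 20.05 and 19.7 CPM (log2 fold change -0.60, edgeR adjusted p = 0.0312), a call lost without control replicate 2, control replicate 3 or either treated library (adjusted p up to 0.171). Müller glia markers fell after DZNep too: 9 of 9 were called lower, and their summed CPM went from between 11085 and 11471 to between 7630.2 and 8493. Their part in the change of Hkdc1 and Txnip was not tested. Gapdh, a common reference gene, was at 157 to 193 CPM in DZNep controls and at 179 and 190.4 CPM after treatment (log2 fold change 0.09). It was called in no comparison, and processed copies may take some of its reads.

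After UNC1999, 1 of 49 tested genes of the list was called, Slc16a8, the lactate transporter MCT3 of the pigment epithelium. It was at 4.31, 4.47 and 5.52 CPM in controls and at 21.5, 16.7 and 16.3 CPM in treated retinas (log2 fold change 1.92, SE 0.16, edgeR adjusted p = 0.00549), and the call was lost without control replicate 2 or treated replicate 2 (adjusted p up to 0.0542). The 6 pigment epithelium genes called higher after UNC1999 were given beside Slc2a1, and their part in this rise was not tested. Romidepsin gave 1 call among 50, Nxnl2, from 31.4, 30.1 and 39.1 CPM to 73.9, 99.1 and 81.0 CPM (log2 fold change 1.34, SE 0.16, edgeR adjusted p = 0.0269), which missed the threshold without control replicate 2 (0.120), control replicate 3 (0.112) or treated replicate 3 (0.124). No gene of the list was called after UNC0642 (50 tested) or GSK2879552 (46 tested), where 4 genes each had an unadjusted p under 0.05, beside 14.7% and 4.91% of all genes.

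Because each effect was measured against its own controls, the difference between the effects was tested in a joint fit of the 22 retina libraries. Of 60 tests, 10 members in 6 pairs of experiments, 0 passed an adjusted p under 0.05 in the quasi-likelihood test of edgeR, and 12 had an unadjusted p under 0.05, beside 13.8% of all tests over genes and pairs. The background was low for most pairs: of all genes, 0.0% were called positive and 0.00579% negative for DZNep less UNC1999, 0.00579% and 0.0174% for DZNep less UNC0642, 0.162% and 0.127% for DZNep less Romidepsin, 0.0% and 0.0116% for UNC1999 less UNC0642, 0.0174% and 0.0% for UNC0642 less Romidepsin, and 2.15% and 2.96% for UNC1999 less Romidepsin. Hk2 came closest, with a log2 difference of effects of 1.02 between DZNep and UNC0642 (SE 0.23, edgeR adjusted p = 0.117) and of -0.96 between UNC0642 and Romidepsin (SE 0.22, edgeR adjusted p = 0.0882). The likelihood ratio test called both (adjusted p = 0.0107 and 0.0130). Without Romidepsin-treated replicate 1, 4 differences passed, for Hk1 (in 2 pairs), Hk2 and Pfkfb2; without Romidepsin-treated replicate 2 the same 2 of Hk2 passed (0.0471 and 0.0494), and without UNC1999 control replicate 3 that of Pfkfb2 between UNC1999 and Romidepsin did (0.0493). For Pfkfb2 the DZNep effect was 0.78 above that of Romidepsin (SE 0.28, edgeR adjusted p = 0.217). The contrast between a called and an uncalled comparison is therefore not shown to be a difference between inhibitors.

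Rod genes were set beside Hk2, and in whole retinas fewer cells of a type and less RNA per cell cannot be told apart. The summed CPM of 13 rod genes ran from 17701 to 29699.6 in DZNep controls and from 54619.5 to 56417 in treated retinas, with 13 of 13 called higher and a median log2 fold change of 1.23, close to the 1.16 of Hk2. For UNC1999 the sums ran from 18874 to 35869.7 in controls and from 48787 to 66563 after treatment (median 0.99 against 0.83 for Hk2, 0 of 13 called). After Romidepsin they overlapped, from 14944 to 24417 and from 23793 to 31865, with a median of 0.42 against 1.10 for Hk2, whose log2 fold change was above that of each of the 13 rod genes. In sorted rods the sums overlapped as well, from 52223 to 80146 in controls and from 63109 to 70886 after GSK2879552, with a median of 0.00 against 0.76 for Hk2. In the same sorted libraries the summed CPM of 10 cone genes ran from 3104 to 4664 in controls and from 1702 to 2265 after GSK2879552 (0 of 10 called, median log2 fold change -0.95), and that of 5 gliosis genes from 120.1 to 180.2 and from 39.0 to 39.6 (0 of 5 called). Their part in the values of Hk2 was not tested. Per 1000 CPM of the rod genes Hk2 stood at 8.34 to 10.9 CPM in DZNep controls and 8.87 to 9.13 CPM after treatment, which overlapped. The same quantity was 7.63 to 10.6 and 7.25 to 7.60 for UNC1999, 8.06 to 10.2 and 10.4 to 17.3 for Romidepsin, and 4.65 to 4.90 and 7.90 to 8.03 in sorted rods. For UNC0642 it was 14.9 and 15.4 in controls, the highest of all controls, and 11.7 and 14.7 in treated retinas. The treated libraries lay above their controls in this quantity for Romidepsin and in sorted rods and below them for UNC1999 and UNC0642, without overlap in any of these 4. This ratio was chosen after its values were seen and has no test. Controls of UNC0642 held less rod RNA than other control retinas, with sums of 8644 and 8841 CPM, and they also had the lowest Hk2.

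**Figure D4:**
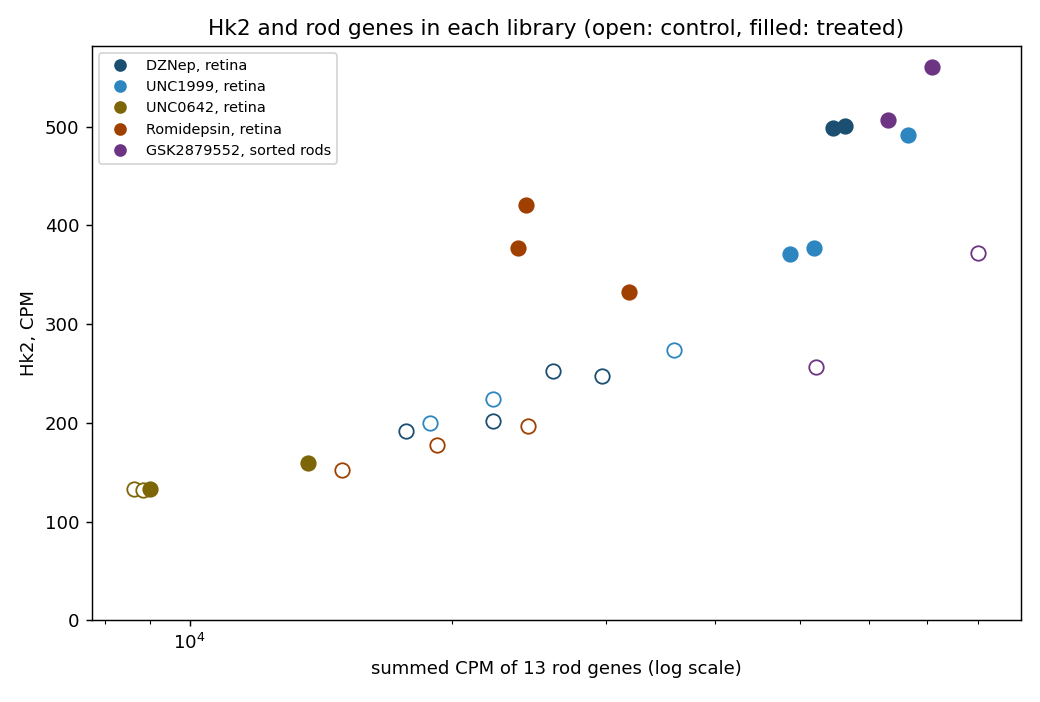
Hk2 in CPM (vertical axis) against the summed CPM of 13 rod genes on a log axis, 1 point per library, open for control and filled for treated, coloured by experiment. Romidepsin-treated retinas and GSK2879552-treated rods lie above controls with like rod sums, while DZNep and UNC1999 points run with the rod genes.

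The genes closest to the hexokinases in their pattern over the 22 retinas, each library taken relative to the mean of its own controls, were found over all genes. For Hk2 these were Ccdc64, Slco4a1, Llgl2, Tcp11 and Arl4d among 15375 genes tested in all 4 comparisons, with root-mean-square differences of 0.08 to 0.16 on the log2 scale. Ccdc64 stood at 1.12 after DZNep, 0.68 after UNC1999, 0.06 after UNC0642 and 1.08 after Romidepsin, as log2 differences from controls. For Hk1 they were Lsm14a, Ppard, a fatty acid sensing receptor, and Lpcat1, a phospholipid enzyme, at 0.08 to 0.09.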

How the data were processed

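RNA-seq of 22 whole retinas and 4 samples of sorted rods was used, grouped by the labels. The authors used BBDuk for trimming, HISAT2 2.2.1 for alignment to NCBIM37 and HTSeq 0.11.2 for counting by gene. Whether strand was used in counting is not given in the sources used here. The deposited values are raw counts of 37991 genes. Retina libraries were made with a stranded Illumina kit and, by the study's methods, those of rods with a SMART-Seq kit. Genes were filtered with filterByExpr and scaled by TMM in edgeR 4.0.16 (R 4.3.3), each treatment against the controls of its own experiment, with the quasi-likelihood F test in place of the authors' likelihood ratio test. P-values were adjusted by Benjamini-Hochberg over all genes tested, and calls were made under 0.05. CPM are TMM-scaled within an experiment. A count of 3 was taken as the floor of detection; it covers counting error only. The labels of some samples raise the number ending a genotype or compound name by 1 per sample, and the titles were used. No 2 replicates were copies (lowest chi-square per gene 3.89 in 23 pairs). Positions and lengths are from GENCODE M1 on NCBIM37, promoters from RefSeq on GRCm38.p6.

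The genes and lists were chosen with earlier results of these data known. All 10 members are named; of the list of 56 further genes, Gapdh and, in each comparison and direction, up to 4 called genes with the smallest p-values are named. Other settings were RLE scaling, the likelihood ratio test, DESeq2 1.42.0, other count filters, a fold threshold, a replicate block, a fit of all 22 retinas and leaving out each library. The fits were tested on simulated data. Isoenzyme ratios were tested by exact permutation.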

Additional observations from a re-analysis of the deposited data

Results flagged for a closer look

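2 results were set apart because the effects of 2 inhibitors on the same gene differed in the test of the difference itself, in the fit of the 22 retina libraries by the quasi-likelihood test of edgeR. For Slc16a8, the lactate transporter of the pigment epithelium, the UNC1999 effect exceeded that of Romidepsin by 1.97 on the log2 scale (SE 0.39, adjusted p = 0.00823). It was at 16.3 to 21.5 CPM in 3 of 3 UNC1999-treated retinas against 4.31 to 5.52 CPM in controls, and at 3.50 to 4.36 CPM in 3 of 3 Romidepsin-treated retinas against 3.42 to 4.53 CPM, which overlapped. For Txnip the difference of the same effects was -1.67 (SE 0.34, adjusted p = 0.0105). In this contrast 2.15% of all 17274 genes were called positive and 2.96% negative. Txnip was called neither after UNC1999 nor after Romidepsin in the comparison with its own controls. Txnip was at 11.5 to 18.4 CPM after UNC1999 against 23.7 to 34.6 CPM in controls, and at 43.6 to 92.4 CPM after Romidepsin against 30.2 to 42.2 CPM. The summed CPM of 8 pigment epithelium genes was 106 to 125 in UNC1999 controls and 354 to 410 in treated retinas (6 called higher), and 85.7 to 99.3 in Romidepsin controls and 48.6 to 62.2 in treated retinas (0 called), and their part in either difference was not tested. Romidepsin-treated replicate 3 held the highest Txnip of all retinas, at 92.4 CPM. In the 4 DZNep controls no member had a library far enough from the others to be set apart.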

How the results depend on the processing

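Group sizes of 2 to 4 libraries limit every call. For DZNep, members called higher were 6, and 1 when a log2 fold change above 1 was also required, 3 with the replicate block, and 3 to 6 when each library was left out (3 without either treated library); members called lower were 1, and 0 under the same second threshold, under the block and in the fit of all 22 retinas, and 0 to 1 leaving out a library. The list of further genes called higher was 12, and 2 with the fold threshold, 7 with the block, 6 in the fit of all 22 retinas and 5 to 13 leaving out a library; called lower it was 2, and 1 with the fold threshold and in the fit of all retinas, and 1 to 4 leaving out a library. For UNC1999, members called higher were 0, and 3 without a filter on low counts, 4 by the likelihood ratio test, 4 by DESeq2, 3 in the fit of all retinas and 0 to 5 leaving out a library (5 without control replicate 3); the list gave 1 higher, and 5, 7, 6, 7 and 0 to 9 in the same order, and 0 lower, and 2, 5, 4, 3 and 0 to 6. UNC0642 gave 1 call lower in the list without a filter. For Romidepsin, members called higher were 1, and 2 without a filter, by the likelihood ratio test and by DESeq2, 4 in the fit of all retinas and 0 to 2 leaving out a library; called lower 1 in that fit, and the list 5 higher in it and 0 to 1 leaving out a library. Differences between effects gave 0 calls, and 2 by the likelihood ratio test and 0 to 4 leaving out a library. The cause of these shifts was not tested, and a fit that leaves out a library also holds fewer libraries. The replicate numbers showed no clear pairing of the samples: correlations of deviations of same-numbered libraries ran from -0.28 to 0.23. So few libraries cannot exclude pairing. With 2 libraries in each arm, as for UNC0642 (0.213) and GSK2879552 (-0.0788), both pairs give the same value by construction.

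Over the named genes and all settings, 681 values kept direction and call, 31 lost and 27 gained the call, and 25 changed sign, all of genes not called in either. All 25 came from leaving out 1 library, and the log2 fold changes over the libraries left out in turn are given as ranges. After UNC1999 these were Aldoc -0.0036 to 0.15. After UNC0642 these were Pfkfb2 -0.094 to 0.12, Pfkm -0.0096 to 0.047, Aldoc -0.15 to 0.055, Pgk1 -0.013 to 0.12 and Gapdh -0.080 to 0.23. After Romidepsin these were Pfkfb2 -0.093 to 0.41, Aldoc -0.086 to 0.13 and Pgk1 -0.084 to 0.16. In sorted rods these were Hk1 -0.37 to 0.25, Pfkfb2 -0.18 to 0.36, Pfkm -0.50 to 0.17, Aldoa -0.30 to 0.49, Aldoc -0.26 to 0.52, Pgk1 -0.64 to 0.13 and Ldha -0.41 to 0.20.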
